A study of Sus scrofa with 13 samples.

Results

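The genes described here are those whose RNA was nearly confined to lung among 9 organs of adult Guizhou mini-pigs, a small Chinese breed. Total RNA sequencing was carried out for 13 libraries, with 1 library per tissue or stage. Of these, 9 came from heart, liver, spleen, lung, kidney, testis, ovary, adipose tissue and a skeletal muscle of the back, longissimus dorsi, at 240 days after birth. Longissimus dorsi was also sequenced at day 0 and day 30, and 2 further libraries were equal mixtures of RNA from multiple breeds and time points, 1 of multiple tissues and 1 of longissimus dorsi. No group carried a transgene or treatment according to the sample labels, and neither the sex of the pigs nor the number of animals behind a library is given there. The values are RPKM, the reads of a gene relative to its length and to the reads of its library.

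A gene was taken as lung-restricted when it carried an Ensembl identifier, had an RPKM of at least 1 in lung, was highest in lung, and had a tau of at least 0.9 over the 9 organs at day 240. Tau measures organ restriction, from 0 when all organs are level to 1 when a single organ holds the gene, and it was computed on the log2(RPKM + 0.1) scale. Of 21607 Ensembl genes listed, 1891 (8.75%) were highest in lung, 1193 of these had an RPKM of at least 1 there, and 73 (0.338% of all) passed the whole rule. Of the 73 genes, 46 have a symbol and 27 are known by their Ensembl identifier only. These genes were selected on their RPKM in the 9 organs at day 240, so these values are given as a description, with no test. Muscle at day 0 and day 30 and both mixtures were not used in the choice.

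The lung exchanges gas across a thin alveolar wall. In the alveoli, flat type 1 cells cover the surface, and type 2 cells secrete surfactant, a film of lipids and the proteins SFTPA1, SFTPB, SFTPC and SFTPD that keeps the alveoli open. The airways are lined by secretory cells, which release secretoglobins and mucus, and by ciliated cells, whose motile cilia sweep the mucus upwards. Since these were whole pieces of tissue, fewer cells of a type and less RNA per cell cannot be told apart.

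Restricted genes differed widely in level. Lung RPKM ranged from 1.07 to 669, with a median of 2.67, and 24 genes reached an RPKM of 5. The 7 genes above 50 RPKM held 84.2% of the RPKM summed over all 73 genes in lung. With 36962781 reads in the total and 6154301 reads counted on genes and lncRNAs in lung, a restricted gene had a median of 121 lung reads. Only WFDC10A, with 4 reads, had fewer than 10. For WFDC10A and the 16 other genes above 0 in at most 3 libraries, the reads are lower bounds. The 73 genes together took 1.49% of the reads counted in lung and at most 0.00386% of those counted in each of the other organs at day 240.

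**Figure D1:**
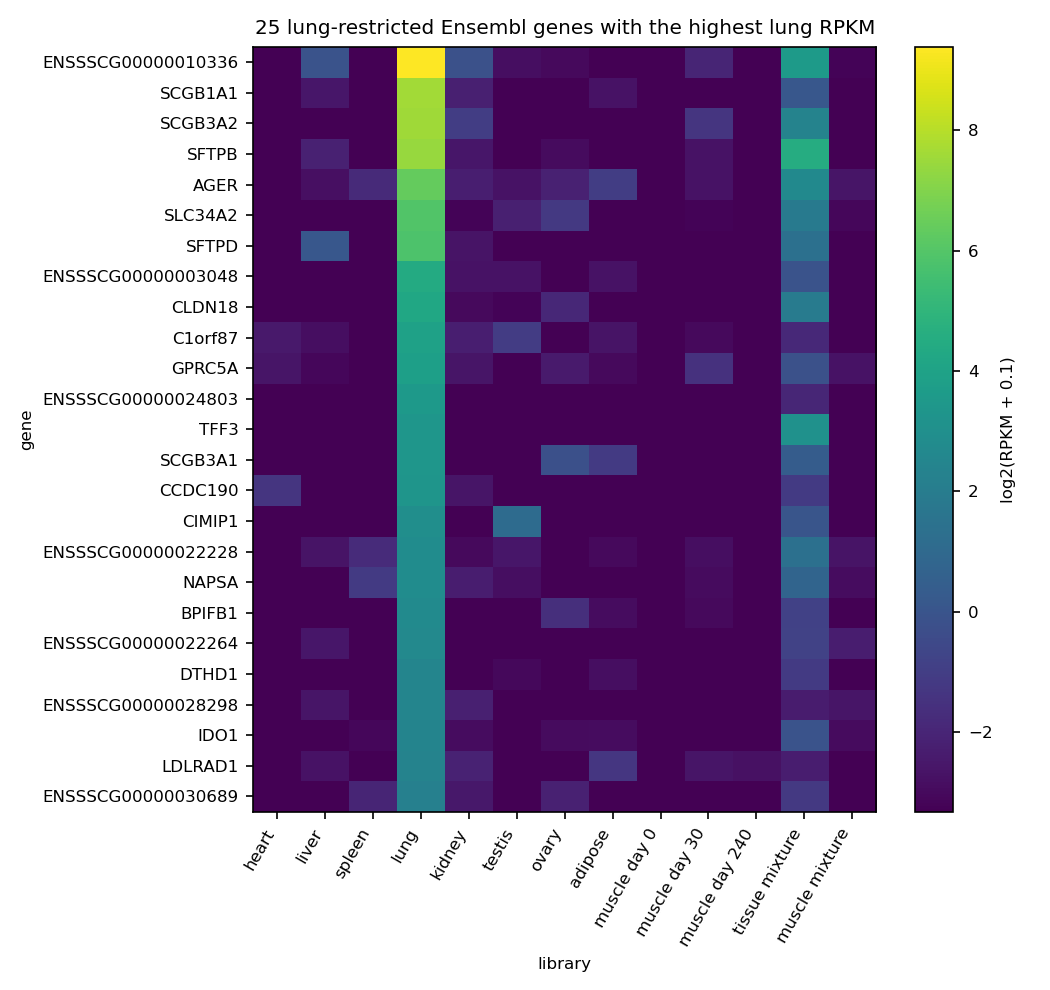
Heat map of the 25 lung-restricted genes with the highest lung RPKM (rows) in the 13 libraries (columns), with colour giving log2(RPKM + 0.1) of 1 library each. Apart from lung, the tissue mixture is the library with the most signal, and liver and kidney hold low values of several of the genes at the top.

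The highest gene, ENSSSCG00000010336, has no symbol in the table of names used. It was the Ensembl gene with the third highest RPKM in lung, with 669 RPKM from 46855 reads (exact Poisson 95% interval 663 to 675 RPKM). Elsewhere it had 0.856 RPKM in liver, 0.784 in kidney, 0.0410 in testis, 0.0243 in ovary and 0.151 in muscle at day 30, and it was listed at 0 in the other single-tissue libraries. In the tissue mixture it reached 11.9 RPKM and in the muscle mixture 0.00837 RPKM. The level in lung was thus 781 times that in liver, the next organ, with all libraries except lung and the tissue mixture below 1 RPKM.

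Surfactant genes followed. SFTPB, the surfactant protein needed for the spreading of the lipid film, had 169 RPKM in lung (interval 166 to 173). It had 0.123 RPKM in liver, 0.0698 in kidney, 0.0292 in ovary and 0.0519 in muscle at day 30, 23.0 in the tissue mixture, and was listed at 0 in the other 7 libraries. SFTPD, a collectin that binds sugars on microbes, had 56.2 RPKM in lung (54.1 to 58.3), 0.988 in liver and 0.0612 in kidney, 2.51 in the tissue mixture and 0 elsewhere. Its ratio of lung to the next organ, 56.9, was thereby far lower than that of SFTPB (1372). SLC34A2, the phosphate transporter of type 2 cells, had 60.5 RPKM in lung against 0.327 in ovary, 0.116 in testis and 0.00722 in kidney. NAPSA, the aspartic protease that processes surfactant proteins, was lower, with 7.13 RPKM in lung against 0.345 in spleen. CLDN18, a tight junction protein of the alveolar epithelium, had 18.7 RPKM in lung against 0.165 in ovary.

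SFTPC, which is specific to type 2 cells, did not pass the rule. At 831 RPKM from 32284 reads it was higher in lung than each of the 73 genes. However, it had 5.43 RPKM in testis and 3.42 in ovary, against 0.863 in kidney and 0.401 in liver, and its tau was 0.836. Of the 15 genes of the alveolar type 2 list that were measured, 11 were highest in lung with an RPKM of at least 1 and 5 were restricted (SFTPB, SFTPD, SLC34A2, CLDN18 and NAPSA). Others on this list were shared with further organs, such as ABCA3, the lipid transporter of lamellar bodies, with 3.68 RPKM in lung and 0.739 in liver.

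The type 1 list is shorter, with 3 of 11 measured genes restricted against 5 of 15 on the type 2 list. CLDN18 is on both lists. AGER, the receptor for advanced glycation end products and a marker of type 1 cells, had 83.4 RPKM in lung (81.0 to 85.9) and was above 0 in 10 of the 13 libraries. Its next highest organs were adipose tissue with 0.398 RPKM, spleen with 0.188 and ovary with 0.126, and its tau of 0.907 was close to the limit. GPRC5A, a receptor of lung epithelium, had 14.2 RPKM in lung and 0.257 RPKM in muscle at day 30, above each of the 8 other organs at day 240 (at most 0.0890 RPKM, in ovary). AQP5, a water channel of type 1 cells and glands, was above 0 in lung alone among the 9 organs, but its 0.849 RPKM lay under the limit of 1. Together, 8 of 11 measured genes of the type 1 list were highest in lung with an RPKM of at least 1 and 3 were restricted (AGER, GPRC5A and CLDN18).

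Airway secretory genes were led by secretoglobins, small proteins secreted by club cells. SCGB1A1 had 200 RPKM in lung (interval 193 to 207), with 0.116 in kidney, 0.0683 in liver and 0.0558 in adipose tissue, each from 1 or 2 reads. Its ratio of lung to the next organ was 1726, the highest of the 66 genes with a value above 0 in a further organ. SCGB3A2 had 191 RPKM in lung, 0.390 in kidney and 0.290 in muscle at day 30. SCGB3A1 was lower, at 9.99 RPKM, and had 0.753 RPKM in ovary and 0.346 in adipose tissue, so that its tau of 0.901 was the lowest of all 73 genes. BPIFB1, a lipid-binding protein of airway mucus, had 6.69 RPKM in lung against 0.227 in ovary. TFF3, a trefoil peptide secreted with mucus, had 10.1 RPKM in lung from 53 reads and was listed at 0 in the other 10 single-tissue libraries. Against a floor of 3 reads in each library, TFF3 was at least 10.4-fold higher in lung than in the other organs at day 240. The 5 genes named here were the restricted ones among 16 measured genes of the secretory list.

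Further restricted genes with roles in mucus and defence were lower. FUT2, the fucosyltransferase that makes the secretor antigens, had 2.96 RPKM in lung and 0.732 in kidney, a ratio of 4.04. CLCA1, a secreted protein of goblet cells, had 2.67 RPKM in lung and 0.152 in testis. CHIA, the acidic mammalian chitinase, had 1.997 RPKM against 0.0198 in liver, and IDO1, which breaks down tryptophan, had 5.21 RPKM against 0.0345 in kidney. PIGR, the receptor that carries immunoglobulin A across epithelia, had a tau of 0.892, just under the limit, with 1.73 RPKM in kidney beside 10.7 RPKM in lung.

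**Figure D2:**
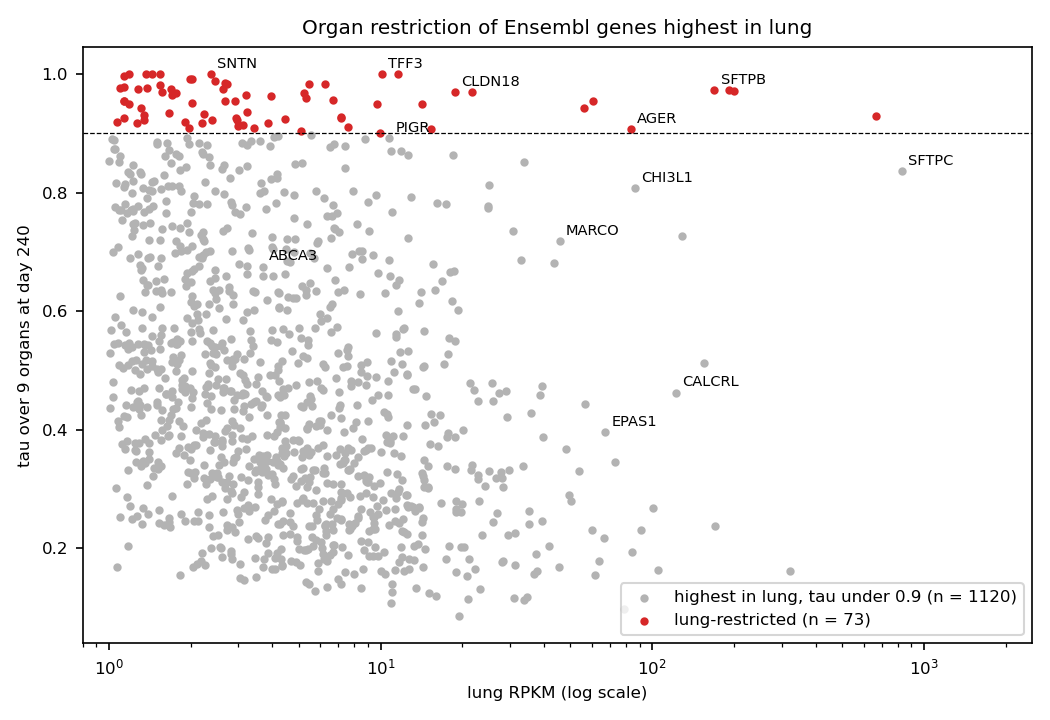
Tau over the 9 organs at day 240 against lung RPKM on a log scale for the 1193 Ensembl genes that were highest in lung with at least 1 RPKM, 1 point per gene. The 73 restricted genes (red) lie at or above the dashed limit of 0.9 at every level from 1.07 to 669 RPKM, while SFTPC, CHI3L1, MARCO, CALCRL and EPAS1 are high in lung but below it.

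Cilia genes formed a further part. On the motile cilia list, 17 of 20 measured genes had an RPKM of at least 1 in lung, but 14 were highest in testis, where sperm tails are built on a like axoneme, and 5 were highest in lung with an RPKM of at least 1. Only RSPH4A and SNTN were restricted. Testis also had the most genes restricted by the same rule, 767 against 73 for lung. RSPH4A, a radial spoke protein of cilia, had 3.43 RPKM in lung and 0.509 in testis. SNTN, which marks the tips of airway cilia, had 2.38 RPKM from 13 reads in lung, 0 in all other single-tissue libraries and 0.125 in the tissue mixture. The restricted genes outside the lists include CIMIP1 and CIMIP2B, named as ciliary microtubule inner proteins, and these were named after their values were seen. CIMIP1 had 7.56 RPKM in lung and 2.08 in testis, a ratio of 3.64, and was the only restricted gene with at least 1 RPKM in a further organ. CIMIP2B had 1.57 RPKM in lung and 0.0984 in testis. FOXJ1, the master transcription factor of motile cilia, had 0.833 RPKM in lung and 0.674 in testis and was not restricted.

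Testis was the organ whose removal changed the set most. With tau computed over the remaining 8 organs, 146 genes passed the rule, 70 of the 73 and 76 others. A gene could enter only where testis had kept it out, so high testis values are partly set by this step. Of these 76 genes, 51 were higher in testis than in lung, and their median RPKM was 2.64 in lung and 6.995 in testis. They include 6 genes of the motile cilia list, among them CAPS, which was lower in testis (0.130 RPKM) than in lung (2.29 RPKM). SPAG6, a protein of the central apparatus of the axoneme, had 5.64 RPKM in lung and 118 in testis. TEKT1, a tektin of the microtubule wall, had 2.65 RPKM in lung and 24.1 in testis, and TEKT2 had 1.62 and 62.3 RPKM. DNAI2, an intermediate chain of axonemal dynein, had 1.93 RPKM in lung and 6.23 in testis. TBX4, a transcription factor of lung mesenchyme, was also among the 76, at 5.54 RPKM in lung, 0.223 in ovary and 0.219 in testis.

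**Figure D3:**
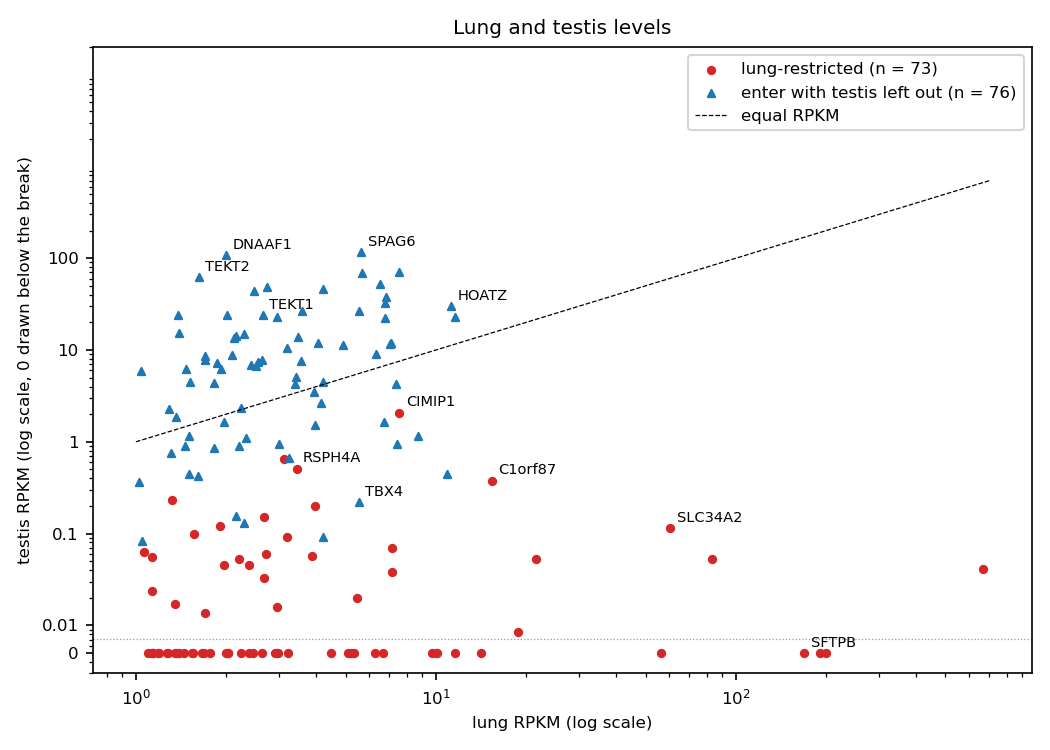
Testis RPKM against lung RPKM, both on log scales, for the 73 lung-restricted genes (red circles) and the 76 further genes that enter with testis left out (blue triangles), 1 point per gene, with genes at 0 in testis drawn below the dotted line. CIMIP1, at 2.08 RPKM, is the highest red point on the testis axis, while 51 of the 76 blue points lie above the line of equal RPKM. Blue genes enter only where testis had kept them out, so their place on the testis axis is partly set by this.

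The restricted genes were set against markers of the cell types such a sample could hold. Of 18 lists with 180 measured genes, 7 had a restricted gene, and 16 restricted genes were on a list. No measured gene of the lists for transcription factors, endothelium, macrophages, granulocytes and mast cells, lymphocytes, smooth muscle and fibroblasts, basal cells, neuroendocrine cells, mesothelium, blood or thyroid was restricted. A gene at a like level in other organs cannot be restricted, so this does not show which of these cells the sample held. In lung the blood list summed to 28.7 RPKM and the smooth muscle and fibroblast list to 199 RPKM. On the endothelium list, 10 of 13 measured genes were highest in lung with an RPKM of at least 1, such as CALCRL, a receptor of adrenomedullin, with 122 RPKM in lung and 14.3 in ovary (tau 0.462). Among the transcription factors 8 of 15 were, with EHF at 15.5 RPKM in lung and 5.55 in testis. MARCO, the scavenger receptor of alveolar macrophages, had 45.7 RPKM in lung and 9.88 in liver, and 3 of 10 measured macrophage genes were highest in lung at this level. For granulocytes and mast cells this number was 4 of 8, for smooth muscle and fibroblasts 3 of 11, and for lymphocytes 2 of 13. No gene of the basal cell, neuroendocrine, mesothelium, blood or thyroid lists was highest in lung with an RPKM of at least 1. The thyroid marker TG had 3 reads in lung (0.0101 RPKM). However, 1 of the 3 measured thyroid genes had at least 1 RPKM in lung, and the list summed to 1.51 RPKM there. On the cartilage list only MATN4 was restricted (1.54 RPKM), while COL2A1, the main collagen of cartilage, had 0 reads in lung. None of the other 12 measured genes of this list was highest in lung with an RPKM of at least 1, and the list summed to 1.97 RPKM there. On the lists for airway defence and for epithelial ion and water transport, 1 of 14 (SFTPD) and 2 of 13 (SLC34A2 and CLCA1) measured genes were restricted.

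**Figure D4:**
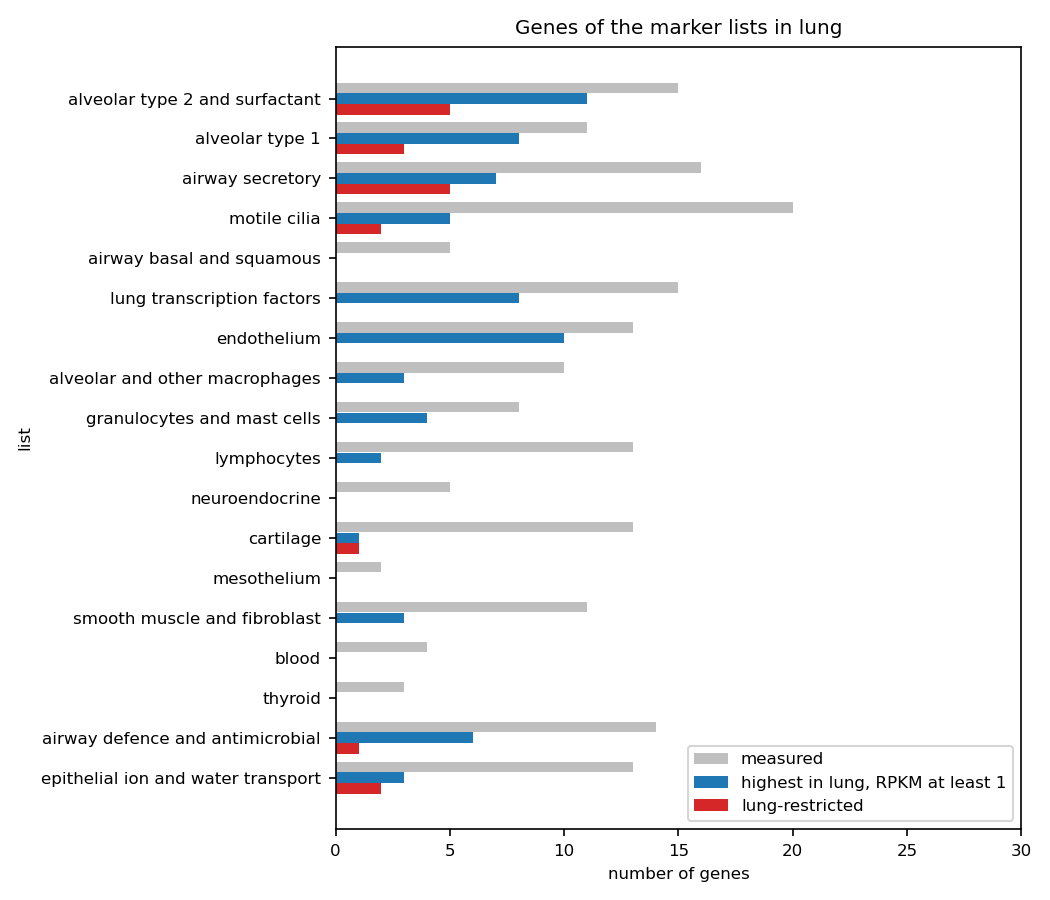
Number of genes measured (grey), highest in lung with at least 1 RPKM (blue) and lung-restricted (red) for each of the 18 marker lists. Restricted genes come from the alveolar, secretory, cilia, cartilage, defence and transport lists, while the endothelium list has 10 blue and 0 red genes.

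Several restricted genes have known roles that are not particular to alveoli or airways. BMP3, a growth factor of the BMP family, had 2.39 RPKM in lung and 0.259 in kidney. SLC6A2, the noradrenaline transporter, had 1.14 RPKM in lung from 79 reads and 0.0740 in heart. KCNMB2, a subunit of calcium-activated potassium channels, had 2.46 RPKM in lung and 0.0338 in kidney, which was 1 read. GPX2, a glutathione peroxidase of epithelia, had 2.02 RPKM in lung and 0.0199 in kidney. The identifier listed as WDR43, a gene of ribosome assembly, had 1.35 RPKM in lung and 0.144 in spleen, and its symbol comes from the table of names only.

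In the 8 other organs, most restricted genes were at or near 0. The number listed at 0 was highest in muscle (66 genes), followed by heart and spleen (62 genes each), and lowest in kidney (34 genes). At 0.1 RPKM or more were 14 genes in kidney, 13 in ovary, 9 in testis, 8 in spleen, 4 in heart, 4 in liver, 3 in adipose tissue and 2 in muscle. The share of all Ensembl genes at this level was 65.1% in kidney, 70.1% in ovary, 72% in testis, 60.7% in spleen, 57.4% in heart, 55.5% in liver, 61.5% in adipose tissue, 50.2% in muscle and 69.8% in lung itself. Low values outside lung were a condition of the choice, so nothing is read from this. The organ next to lung was kidney for 15 genes, testis and ovary for 12 each, liver for 9, spleen for 8, heart for 5, adipose tissue for 4 and muscle for 1. Under either scaling of the libraries, to the same total or by median ratios, ovary was next for 6 genes and adipose tissue for 8. For 7 genes no other organ was above 0. The median ratio of lung to the next organ was 12.8-fold over all 73 genes, with 0.1 RPKM added to both values. Without this addition it was 20.7-fold over the 66 genes with a further organ above 0. For 72 of 73 genes the Poisson interval of lung lay above that of the next organ, and the exception was WFDC10A (0.373 to 3.51 RPKM in lung). The interval of WFDC10A rests on a lower bound of its reads, so it may be too wide. These intervals cover counting error only. Lung being the highest organ was a condition of the choice, so nothing is read from this count.

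Liver and kidney carried low levels of the 7 genes above 50 RPKM in lung. Summed over these genes, RPKM was 1430 in lung, 2.08 in liver (100 reads), 1.54 in kidney (74 reads), 0.506 in ovary (33 reads), 0.454 in adipose tissue (23 reads), 0.210 in testis (23 reads) and 0.188 in spleen (10 reads). All 7 genes were listed at 0 in heart and in both the day 0 and the day 240 muscle libraries. Muscle at day 30 had 14 reads (0.560 RPKM), although its 3620348 counted reads were the fewest of all libraries. The largest values among these were ENSSSCG00000010336 in liver and kidney (50 and 54 reads) and SFTPD in liver (41 reads).

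In skeletal muscle at day 0 and day 30, the restricted genes were mostly absent. At day 0, 4 genes were above 0 (5.48%, against 61.3% of all Ensembl genes) and 2 had at least 0.1 RPKM (2.74%, against 54.6%). At day 30, 20 genes were above 0 (27.4%, against 64.0% of all Ensembl genes) and 6 had at least 0.1 RPKM (8.22%, against 52.6%). In all 3 stages, 49 genes were listed at 0. The highest value at day 30 was that of ENSSSCG00000026486, which had 0.478 RPKM from 19 reads, 0 reads at day 0 and 8 reads (0.151 RPKM) at day 240. It was followed by SCGB3A2 with 0.290 RPKM from 2 reads, KIAA2012 with 0.290 RPKM from 13 reads and GPRC5A with 0.257 RPKM from 13 reads. At day 0 the highest values were those of ENSSSCG00000027600 (0.285 RPKM, 5 reads) and GPX2 (0.122 RPKM, 6 reads). From day 0 to day 30, 5 genes were at least 2-fold higher on the log2(RPKM + 0.1) scale (all Ensembl genes 6.78%) and 0 at least 2-fold lower (24.5%). From day 30 to day 240, 0 genes were higher (11.8%) and 5 lower (10.5%), and from day 0 to day 240, 2 were higher (6.08%) and 2 lower (21.5%). With a pseudocount of 0.01 the 5 genes higher at day 30 than at day 0 became 17, and with a pseudocount of 1 there were 0. Low values in the same muscle at day 240 were a condition of the choice. Low values at day 0 and day 30, and a fall to day 240, are thus partly set by it. The same rule was also applied to the other organs. Outside muscle, their sets had 1.61% (kidney) to 29.4% (adipose tissue) of genes at 0.1 RPKM or more at day 0. At day 30 these shares ranged from 3.23% (kidney) to 14.3% (heart).

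In the tissue mixture, 71 of 73 genes were above 0 (97.3%, against 88.8% of all Ensembl genes). At least 0.1 RPKM was reached by 62 (84.9%), against 80.2% of all Ensembl genes. WFDC10A and ENSSSCG00000006411 were listed at 0 there. The sample labels do not say which tissues were mixed or in what share lung was present. The median ratio of the mixture to lung was 0.0960 over the 73 genes, and 0.0473 with the libraries scaled to the same total. Over the 10087 Ensembl genes with at least 1 RPKM in lung it was 1.44, but the 73 genes had been chosen for being highest in lung. For the genes that the same rule assigned to other organs, the median ratio of the mixture to the home organ was 0.789 for heart (21 genes), 0.384 for liver (87), 0.325 for muscle at day 240 (26), 0.233 for spleen (37), 0.206 for kidney (124), 0.0684 for ovary (82), 0.0349 for adipose tissue (17) and 0.00194 for testis (767). These ratios are on the RPKM scale as deposited, and the differences between organs were not tested.

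The restricted genes did not keep their lung proportions in the mixture. SFTPB, with 0.136 times its lung level, was the highest at 23.0 RPKM, above ENSSSCG00000010336 (11.9 RPKM, 0.0178 times), although its level in lung was lower. SCGB1A1 fell from 200 RPKM in lung to 1.01 in the mixture, 0.00506 times, the lowest ratio among the 24 genes with at least 5 RPKM in lung. It was followed by C1orf87 at 0.0112 times and ENSSSCG00000024803 at 0.0136 times. The mixture value of ENSSSCG00000024803 rests on 2 reads, a lower bound (interval 0.0191 to 0.570 RPKM). The highest ratios in this group were 0.837 for TFF3, 0.346 for ENSSSCG00000022228, 0.226 for NAPSA, 0.203 for CLDN18 and 0.164 for IDO1. SFTPC, outside the rule, had 121 RPKM in the mixture.

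CLCA1, SPHKAP and MATN4 (3 of 73 genes) were higher in the tissue mixture than in lung. This share was 68.7% over all Ensembl genes and 66.8% over those with at least 1 RPKM in lung. The 73 genes had been chosen for being highest in lung, so their low share is partly set by the choice. CLCA1 had 7.25 RPKM in the mixture from 2410 reads, 2.71 times its lung level, and at most 0.152 RPKM in the other single-tissue libraries. SPHKAP, an anchoring protein of protein kinase A, had 1.35 RPKM, and MATN4 had 1.59 RPKM, close to its 1.54 RPKM in lung. Of 16 measured genes of the airway secretory list, 5 were also higher in the mixture than in each of the 9 organs (AGR2, TFF2, LTF, FOXA3 and TMPRSS11A), and none of these was restricted. This was not particular to that list. The number was 11 of 13 on the cartilage list (MATN4 included), 4 of 4 for blood and 1 of 15 for alveolar type 2. The share over all Ensembl genes was not computed. FOXA3 was nearly level with liver (0.834 against 0.826 RPKM), and TMPRSS11A had 9 reads in the mixture. AGR2, which folds mucins, had 8.86 RPKM in the mixture and at most 0.490 in an organ, and TFF2, a trefoil peptide, had 2.91 RPKM in the mixture and 0 reads in all 9 organs. The part of tissues other than the 9 organs in these values was not tested.

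**Figure D5:**
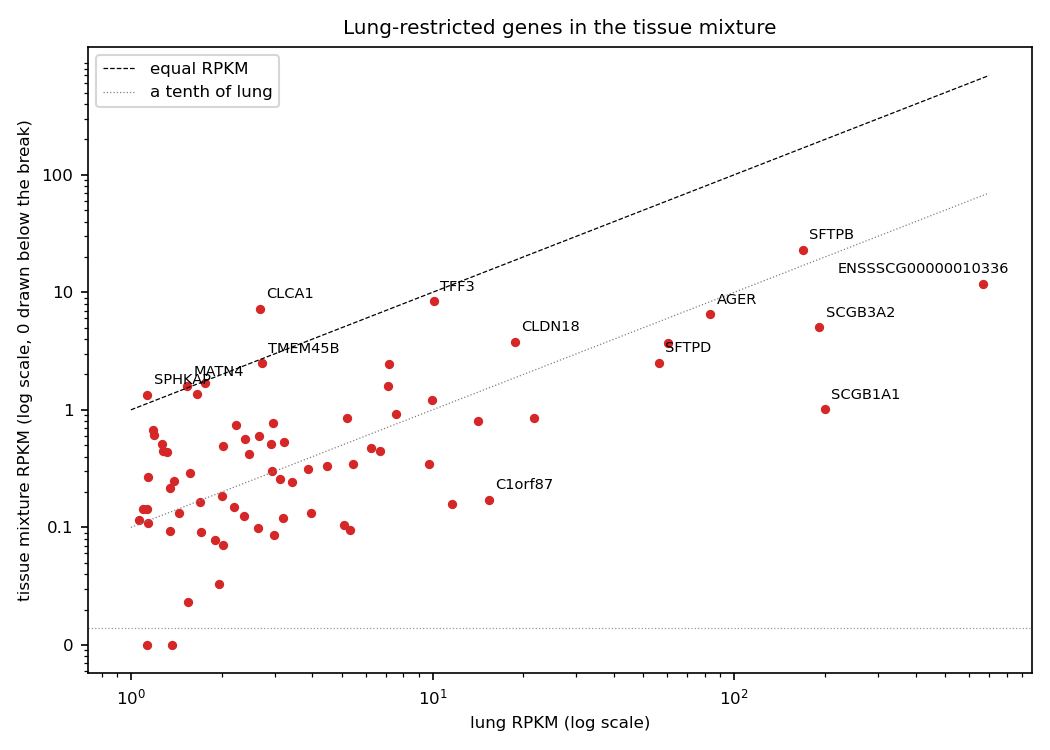
RPKM in the tissue mixture against RPKM in lung, both on log scales, for the 73 lung-restricted genes, 1 point per gene, with lines of equal RPKM and of 0.1 times lung, and genes at 0 in the mixture drawn below the dotted line. SFTPB stands above ENSSSCG00000010336 in the mixture, SCGB1A1 and C1orf87 lie far below the lower line, and CLCA1, SPHKAP and MATN4 lie above the line of equal RPKM.

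In the muscle mixture, 10 genes (13.7%) had at least 0.1 RPKM, against 67.7% of all Ensembl genes. Low values in muscle at day 240 were a condition of the choice, so this share is partly set by it. The highest were SPHKAP with 0.645 RPKM from 222 reads, MATN4 with 0.632 RPKM from 75 reads, GPX2 with 0.575 RPKM from 50 reads, ENSSSCG00000027600 with 0.323 RPKM and ENSSSCG00000027671 with 0.286 RPKM. At day 240, SPHKAP and MATN4 had 1 read each in muscle and GPX2 had 0. Of the 49 genes at 0 in the 3 muscle stages, 21 were above 0 in the muscle mixture, which had 18656109 counted reads against 3620348 to 7288042 in the stages.

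Close to the limits of the rule, the next genes below the tau limit were TBX4 (0.897), CDHR3 (0.896), ENSSSCG00000002049 (0.894), ELF3 (0.892) and PIGR (0.892). The genes just above it were SCGB3A1 (0.901), LDLRAD1 (0.903), AGER (0.907), C1orf87 (0.908) and RSPH4A (0.909). By lung RPKM, FRMD7 (0.965), ENSSSCG00000030651 (0.955), CCL3L1 (0.904) and AQP5 (0.849) lay just under the limit of 1. ENSSSCG00000016670 (1.07), SH2D7 (1.09), ENSSSCG00000006411, ENSSSCG00000015651 and SPHKAP (1.13 each) lay just above it. Below 1 RPKM, a further 278 genes were highest in lung with a tau of at least 0.9.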

How the data were processed

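The authors mapped reads with TopHat (1.3.2 per the labels), assembled transcripts with Cufflinks, counted reads on lncRNAs with htseq-count and deposited RPKM for 32420 features (21607 Ensembl genes and 10813 lncRNAs) in each of 13 libraries. The genome build of these libraries and which reads make up the RPKM total are not given in the sources used here. Libraries were strand-specific and depleted of ribosomal RNA, with SMART or dUTP named for all of them together, so protocol and tissue cannot be told apart. The total of reads in RPKM ranged from 21685316 to 108337358 and the counted reads from 3620348 to 32507136.

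With Python 3.11.15, numpy 2.4.6, pandas 2.3.3 and scipy 1.17.1, whole reads were recovered from ratios of RPKM between libraries, with the largest distance of a total from a whole number 2.98e-08. A length that gives whole reads was found for all 29462 features above 0. Of the 73 genes, 17 are above 0 in 1 to 3 libraries, and their reads are lower bounds. The recovery and the rule were tested on simulated data. The planted lung-restricted genes had many lung reads and were set to no reads in every other organ. The rule was thus not tested on genes with few lung reads or with low values elsewhere. The floor was 3 reads, and intervals are exact Poisson 95% intervals. For the 17 genes above 0 in 1 to 3 libraries they rest on the lower bounds of the reads. With 1 library per group there is no replicate check, so no test between groups was made.

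Symbols came from a table of Ensembl identifiers, which named 11654 of 21607 genes, and a symbol may belong to a later gene model than the one counted. The genes, lists and comparisons were chosen with earlier results of these data known. The genes named were those on the fixed lists, the 25 highest in lung, those near the limits, the 5 highest in each muscle stage and mixture, and those with extreme ratios or tau. Others (among them FUT2, CHIA, BMP3, SLC6A2, KCNMB2, WDR43, DNAI2 and the CIMIP genes) were chosen after their values were seen. Promoter and protein sequences were not analysed here. Alternatives were other pseudocounts, limits and scalings, and leaving out each organ in turn. Of the genes that this rule names, 1 is not reported here.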

Additional observations from a re-analysis of the deposited data

How the results depend on the processing

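No paired analysis was possible because each group had 1 library and the labels carry no replicate numbers. The number of lung-restricted genes was 73. It was 46 with a pseudocount of 0.01, 130 with 1, 112 with a tau limit of 0.85, 41 with 0.95, 24 with a lung minimum of 5 RPKM and 351 without a minimum. It stayed within 1.5 times with a minimum of 0.5 RPKM (98), with at least 10 lung reads (72) and with RPKM scaled to 1 total (96) or by median ratios (62), and 57 of the 73 passed under both scalings. With 1 organ left out in turn it ranged from 69 to 146, with 146 without testis and 113 without liver, and 65 of the 73 passed in all 8 cases.

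With a limit above 0 in place of 0.1 RPKM, the share counted as present was 50.7% in the muscle mixture, 97.3% in the tissue mixture and 27.4% in muscle at day 30. Over all Ensembl genes the shares above 0 were 79.6%, 88.8% and 64.0%, in the same order. With a limit of 1 RPKM the shares were 24.7% in the tissue mixture and 0% at day 0, day 30 and in the muscle mixture. For this limit the shares over all Ensembl genes were not computed. Between muscle stages, a pseudocount of 0.01 gave 17 genes higher and 2 lower from day 0 to day 30, 2 higher and 18 lower from day 30 to day 240, and 5 higher and 4 lower from day 0 to day 240. A pseudocount of 1 gave 0 throughout, and either scaling gave 1 lower from day 0 to day 240. The median ratio of the tissue mixture to lung was 0.134 with a pseudocount of 0.1 and 0.0473 at the same total. The median ratio of lung to the next organ was 27.8 with a pseudocount of 0.01, 2.94 with 1, 16.1 at the same total and 10.3 at the same median ratio. Under either scaling, ovary was next to lung for 6 genes and adipose tissue for 8, and muscle at day 240 for 2 at the same total and 3 at the same median ratio. The cause of these shifts was not tested.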
